A study of Mus musculus with 20 samples.

Results

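The genes described here are 33 type I interferon-stimulated genes, taken as a list of symbols and matched to the Ensembl gene IDs of a table of 20636 genes. All 33 were found, and all 33 passed the minimum mean level for testing, as did 16648 genes in all. They were followed tumour by tumour in pancreatic ductal adenocarcinomas of mice of 3 genotypes. Every mouse carried an oncogenic allele that Cre recombinase switches on, a Rosa26LSL-tdTomato/LSL-tdTomato reporter, and Ptf1aCreER, which puts a tamoxifen-dependent Cre under Ptf1a control, active in the acinar cells that make digestive enzymes. KPT mice were in addition Trp53fl/fl, KAT mice Arf-fl/fl and KPAT mice both. Trp53 encodes the tumour suppressor p53, and Arf is the product of the Cdkn2a locus that stabilises p53. Tamoxifen (5 mg by gavage on 3 days) was given at 8 to 10 weeks of age and the mice were kept until morbid, and the age at collection is not given. Each group held 5 tumours, and RNA of the whole tumour was sequenced, stroma and immune cells included. A further 5 tumours with neither suppressor gene floxed, the KT group, are not analysed here. The question behind the comparisons is what floxed Arf adds where Trp53 is floxed (KPAT against KPT), how the single losses differ (KAT against KPT), and what floxed Trp53 adds where Arf is floxed (KPAT against KAT).

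Type I interferons are secreted when a cell senses foreign or misplaced nucleic acid. They bind a receptor made of Ifnar1 and Ifnar2, whose kinases Jak1 and Tyk2 phosphorylate Stat2. Stat2 joins Irf9 in the complex ISGF3, which binds interferon-stimulated response elements in promoters and turns on genes that block viral replication, among them the sensors and transcription factors of the pathway itself. In tumours the same programme is known from cancer cells as well as from macrophages, fibroblasts and endothelial cells.

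The promoter sequences show what many of the genes share apart from their levels. RefSeq windows of GRCm38.p6, from 250 bases before to 50 after an annotated start, were found for 24 of the 33 genes, 29 windows in all. Mx1, Mx2, Oas2, Usp18, Rtp4, Ifi27l2a, Parp14, Dhx58 and Zbp1 had no entry. GAAANNGAA, the core of the interferon-stimulated response element, was searched on both strands with overlapping matches allowed. It was found in 16 of the 29 windows, which belong to 15 of the 24 genes, against 8.56% of all 32851 windows of the same length. The shorter AANNGAAA, which overlaps it in part, was found in 20 of the 29 windows, at 19 of the 24 genes, against 23.9% of all windows. TTCNNNGAA, the gamma-activated site, was found in 6 of the 29 windows, at 6 of the 24 genes, against 8.3% of all windows. A match is a run of letters and does not show that a factor binds there.

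Shown first are the whole windows of Isg15, which had 3 overlapping matches, and of Irf7, which had none. Irf7 was among the most variable of the genes. Below them stand 90-base stretches around the matches of the Ifit and Oas genes, of Bst2, the most abundant member per length, and of Eif2ak2, which varied little between tumours. All are written 5′ to 3′ on the gene's strand, and capitals mark GAAANNGAA or, where the match lies on the other strand, its reverse TTCNNTTTC.
Isg15, chr4:156200769-156201068, minus strand: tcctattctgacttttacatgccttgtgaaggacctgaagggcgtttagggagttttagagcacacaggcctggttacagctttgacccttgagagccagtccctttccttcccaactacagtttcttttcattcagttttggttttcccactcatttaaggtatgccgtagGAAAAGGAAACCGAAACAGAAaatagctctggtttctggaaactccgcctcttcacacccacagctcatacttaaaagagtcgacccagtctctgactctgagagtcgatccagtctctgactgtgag
Irf7, chr7:141266375-141266674, minus strand: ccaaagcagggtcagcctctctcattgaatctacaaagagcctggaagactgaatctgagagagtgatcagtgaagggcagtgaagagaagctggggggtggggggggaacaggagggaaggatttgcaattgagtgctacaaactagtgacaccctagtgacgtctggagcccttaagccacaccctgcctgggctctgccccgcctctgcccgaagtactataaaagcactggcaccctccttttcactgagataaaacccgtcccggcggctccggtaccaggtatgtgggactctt
Ifit1, chr19:34640752-34640841, plus strand: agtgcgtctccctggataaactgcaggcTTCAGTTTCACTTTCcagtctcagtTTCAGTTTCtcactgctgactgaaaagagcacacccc
Ifit3, chr19:34583360-34583449, plus strand: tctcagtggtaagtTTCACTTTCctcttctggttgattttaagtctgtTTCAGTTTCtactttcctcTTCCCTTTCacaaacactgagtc
Ifit3b, chr19:34607756-34607845, plus strand: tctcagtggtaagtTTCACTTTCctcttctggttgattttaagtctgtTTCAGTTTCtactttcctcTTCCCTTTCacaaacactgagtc
Oas1a, chr5:120907494-120907583, minus strand: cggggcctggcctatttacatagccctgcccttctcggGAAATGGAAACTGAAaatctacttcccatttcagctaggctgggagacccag
Oas3, chr5:120777683-120777772, minus strand: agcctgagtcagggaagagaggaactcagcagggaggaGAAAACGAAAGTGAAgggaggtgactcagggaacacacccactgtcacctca
Bst2, chr8:71537551-71537640, minus strand: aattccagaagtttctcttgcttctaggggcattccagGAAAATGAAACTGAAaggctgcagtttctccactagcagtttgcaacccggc
Eif2ak2, chr17:78882523-78882612, minus strand: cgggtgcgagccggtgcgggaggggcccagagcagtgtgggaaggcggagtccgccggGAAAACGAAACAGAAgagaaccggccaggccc
The Ifit3 and Ifit3b stretches are the same letter for letter and hold 3 matches each, as Ifit1 does, all of them on the opposite strand. In Isg15, Oas1a, Oas3, Bst2 and Eif2ak2 the matches lie on the gene's own strand and overlap each other. Cmpk2, Ifi35, Ifit2, Irf7, Irf9, Isg20, Oasl1, Oasl2 and Xaf1 had no GAAANNGAA in these windows.

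The libraries held 14696138 to 26248484 gene-assigned reads. Levels below are in deposited units, reads divided by a factor per library, of which 1 stands for 14.9 to 27 reads. Trp53 lay at 22.7 to 26.3 in KPT, 32.9 to 57.2 in KPAT and 99 to 148 in KAT, where it is not floxed. Cdkn2a overlapped between the groups (216 to 335, 149.98 to 689.9 and 268 to 907 in KPT, KAT and KPAT), and since the floxed exons are not named its reads check nothing about recombination. The ductal markers that define the labelled carcinoma were present in every tumour (summed level of 7 genes 10166 to 17243 in KPT, 6599.6 to 10943 in KAT, 7135 to 10073 in KPAT). KPT 1 and KAT 1 stood apart from the rest with summed intestinal marker levels of 1419 and 1288, against 159.9 to 811 in the others. The labels number the tumours of a group separately but do not say that they come from separate mice, and they name no batch. Unless another tool or fit is named, a fold change is a difference of mean log2(normalized count + 1), a scale that understates low genes. An adjusted p is then limma's after Benjamini-Hochberg adjustment over 16648 genes. Where a library is left out, the adjustment is over the genes tested in that fit.

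Most of the 33 genes were highest together in a few tumours of 2 genotypes, with the other tumours graded below them. Their mean log2 level was 8.67, 6.73, 7.74, 6.29 and 9.77 in KPT tumours 1 to 5, 7.72, 5.86, 6.51, 7.2 and 7.23 in KAT and 9.09, 6.73, 5.92, 5.85 and 5.89 in KPAT. KPT 5, KPAT 1 and KPT 1 stood highest, KPT 3 and KAT 1 came next, and KPAT 3, 4 and 5 with KAT 2 lay lowest. KPT 5 held the highest level of 26 of the 33 genes and KPAT 1 that of 5, while Oasl1 and Ifi35 were highest in KPT 1. For 24 of the 33 genes the 3 highest tumours were these 3. Within KPAT, KPAT 1 was the highest tumour for 32 genes (Isg20 was the exception), and within KPT, KPT 5 was the highest for 31. KAT held no tumour of that height, and KAT 1 led its group for 21 genes. The median gene stood at 8.73 times its own median over 15 tumours in KPT 5, 4.35 times in KPAT 1 and 3.66 times in KPT 1, but 0.472 times in KPAT 5.

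**Figure D1:**
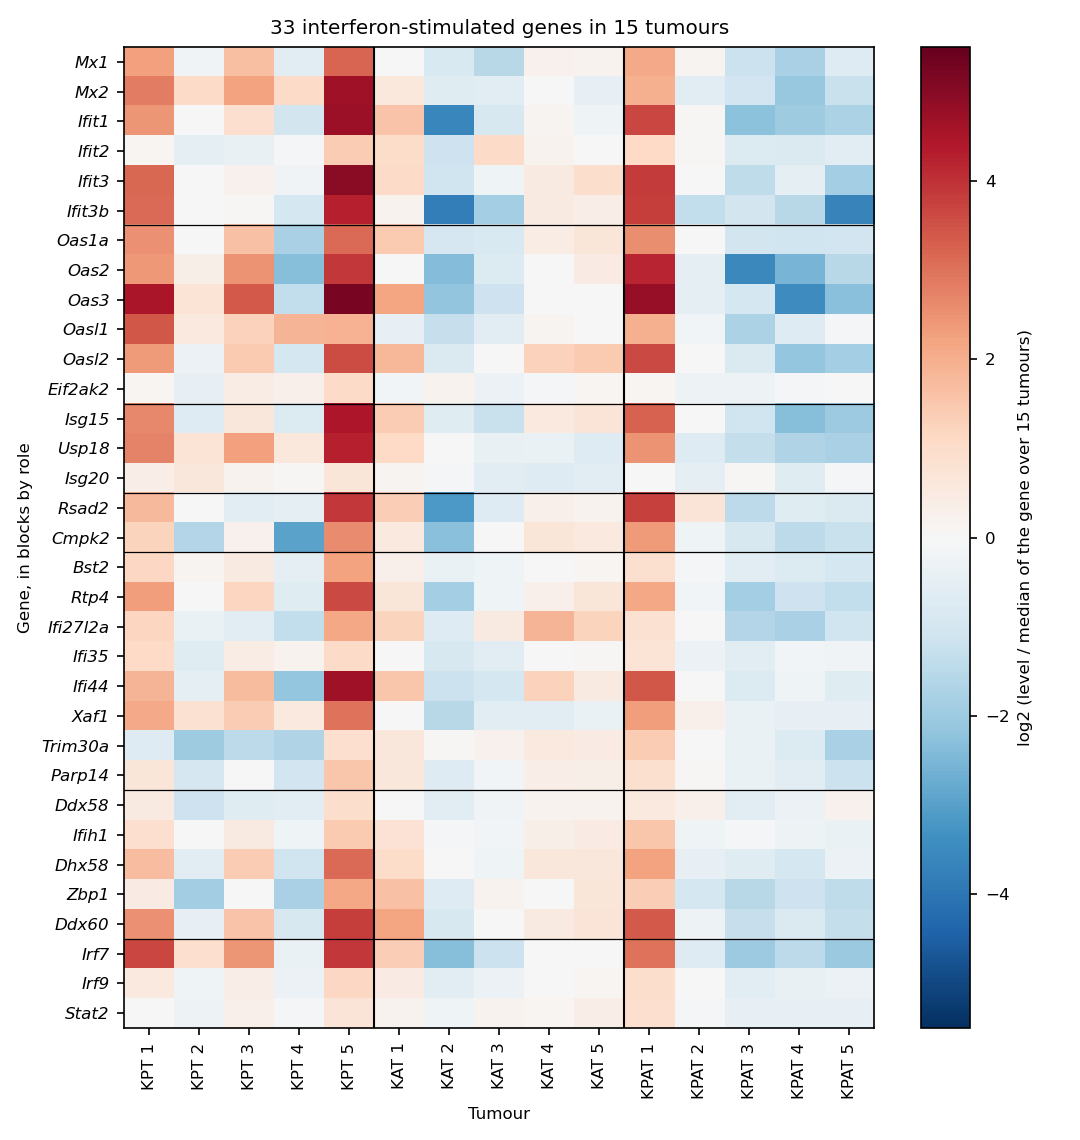
Level of each of the 33 genes (rows, in blocks by role) in each of 15 tumours (columns), as log2 of the level over the gene's median. KPT 5, KPAT 1 and KPT 1 are the darkest red columns, and Isg20, Eif2ak2 and Stat2 are among the palest rows.

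Tumours of one genotype therefore differed more in these genes than in most. The SD between tumours of the same genotype had a median of 1.28 on the log2 scale over the 33 genes, against 0.39 over all tested genes. It exceeded the all-gene median in 31 of 33 and lay among the highest 10% in 20. Oas3 had the largest (2.5), while Isg20 (0.32) and Eif2ak2 (0.35) lay under the all-gene median. As a description across 15 tumours, which share their library scaling, each gene's deviation from its genotype mean was set against the mean deviation of the other 32. The correlation was over 0.9 for 25 genes, with a median of 0.95, or 0.89 without KPT 5 and KPAT 1, the tumours farthest from the median. Xaf1 followed the others most closely (r = 0.99, rho = 0.96, and r = 0.97 without KPT 5 and KPAT 1). Isg20 (r = 0.29, rho = 0.29, and r = 0.02 without KPT 5 and KPAT 1) and Eif2ak2 (r = 0.47, rho = 0.24, and r = 0.04 without KPT 5 and KPAT 1) followed least.

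**Figure D2:**
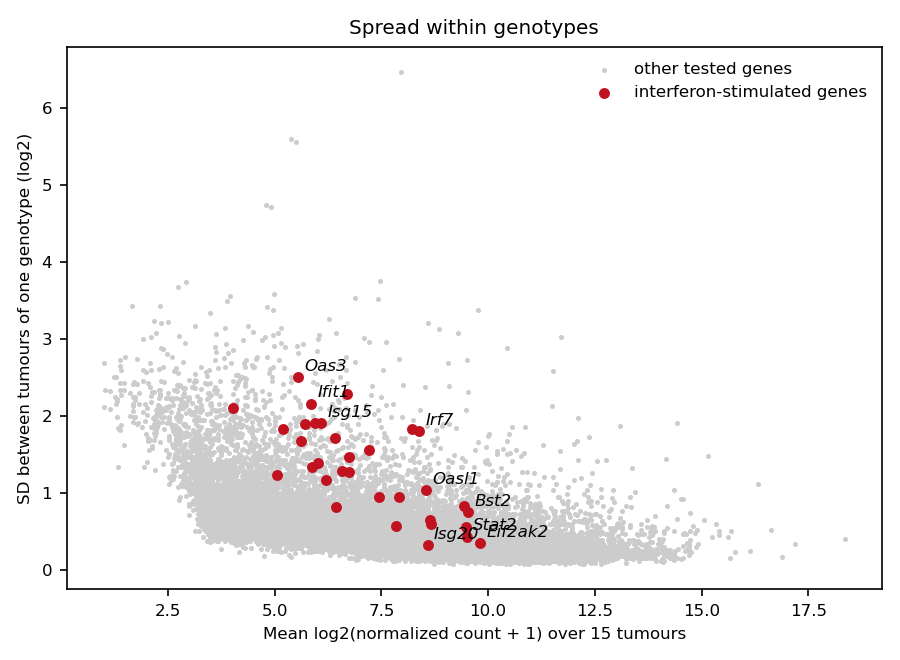
SD between tumours of one genotype (log2, vertical) against mean log2 level (horizontal) for all tested genes in grey and the 33 interferon-stimulated genes in red. Oas3, at 2.5, is the uppermost red point, and Isg20, at 0.32, the lowest.

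Against this spread, few of the genes separated the genotypes. In KPAT against KPT, Mx2, Oasl1 and Usp18 fell, 3 of 33 genes, where 7.40% of all tested genes were called lower. In KAT against KPT, Mx2, Oasl1, Xaf1 and Isg20 fell, 4 of 33, where 13.3% of all tested genes were called lower. By limma both shares are near those of all genes, and the counts are not a result about the list. DESeq2 called 11 of the 33 lower in KAT against KPT, where 16.9% of all genes were. None of the 33 was called higher in either comparison by limma (9.13% and 15.6% of all genes were), with 0 and 1 at an unadjusted p under 0.05, and edgeR and DESeq2 also called 0. In KPAT against KAT, limma, edgeR and DESeq2 called 0 of 33 lower and 0 higher, with 1 gene, Ifi27l2a, lower at an unadjusted p under 0.05. There 0.0120% of all tested genes were called lower and 0.0360% higher.

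Most members had lower means outside KPT whether or not they passed. The log2 fold change was negative for 31 of 33 genes in KPAT against KPT (median -1.03, against 0.02 over all tested genes). It was negative for 27 in KAT against KPT (median -0.80, all genes 0.03). Since the genes moved together and both comparisons use the same 5 KPT tumours, these signs are not 33 separate observations. Without KPT 5 the medians were -0.65 and -0.38. Without KPT 4 they were -1.56 and -1.35, and without KAT 1 or KPT 2 the KAT against KPT median was -1.22 or -1.21. In KPAT against KAT the median was -0.21 with 22 negative. That median was -0.87 without KPAT 1 and -0.52 without KAT 2, between -0.01 and -0.03 without KAT 1, KPAT 3, KPAT 4 or KPAT 5, -0.10 without KAT 5 and -0.13 without KAT 4. It was 0.32 with edgeR and with DESeq2.

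Leaving out 1 library also moved the KPAT against KPT calls. Without KPAT 1, 9 genes fell: Mx2, Oas2, Oas3, Oasl1, Usp18, Bst2, Rtp4, Xaf1 and Irf7, where 6.96% of all genes tested in that fit were called lower. Without KPT 4, 5 fell (Mx2, Usp18, Isg20, Bst2 and Irf7), where 7.72% of all genes did. Mx2 was the only call left after leaving out one of KPT 1, KPT 5 and KPAT 2 to 5, and also with edgeR, while DESeq2 called 5 (7.26% and 11.5% of all genes were called lower by edgeR and DESeq2). In KAT against KPT, Trim30a was called higher without KPT 5 or without KPAT 1, where 15.3% and 15.2% of all genes were.

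**Figure D3:**
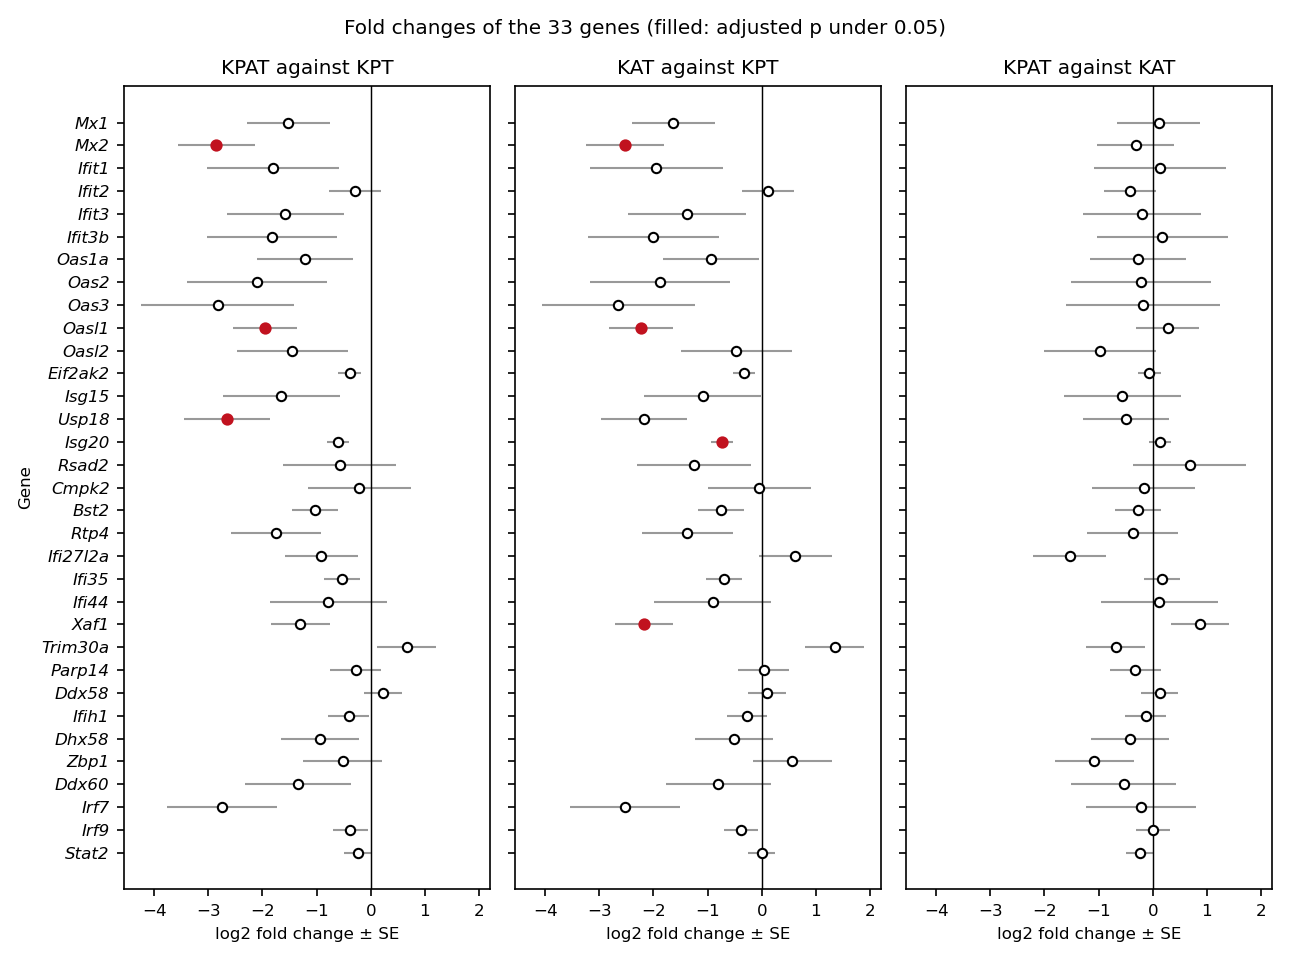
Log2 fold change with its SE (bars) of each of the 33 genes in the 3 comparisons, filled red where adjusted p was under 0.05. Red points number 3, 4 and 0 from left to right, and most points of the left and middle panels lie left of 0.

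Among the antiviral effectors, the Mx GTPases trap viral ribonucleoproteins and the Ifit proteins bind foreign RNA. Mx2 (ENSMUSG00000023341, chromosome 16, 97535308 to 97560900) stood at 8.03, 2.37, 5.18, 2.33 and 28.5 in KPT tumours 1 to 5, at 1.69, 0.714, 0.731, 1.13 and 0.824 in KAT and at 4.34, 0.741, 0.545, 0.268 and 0.487 in KPAT. Every KAT tumour lay below every KPT tumour, whereas KPAT 1 lay inside the KPT range and the other 4 KPAT tumours below it. It fell in KAT (log2 fold change -2.53 with an SE of 0.72, adjusted p = 0.0172) and in KPAT (log2 fold change -2.85 with an SE of 0.72, adjusted p = 0.0165), and both calls held under all 29 alternative analyses. The lowest of these values, in KPAT 4, rests on 4 reads. Mx1, its neighbour on chromosome 16, ranged from 0.738 to 24.1 and did not pass (log2 fold change -1.52 with an SE of 0.77, adjusted p = 0.183 in KPAT against KPT). In KAT against KPT, DESeq2 and limma with quantile scaling called Mx1 lower.

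Ifit1 (ENSMUSG00000034459, chromosome 19, 34640871 to 34650009), which had the largest log2 SD of this class of 6, stood at 14.2, 2.62, 4.97, 1.32 and 68.3 in KPT tumours 1 to 5, at 7.73, 0.22, 1.41, 2.92 and 2.25 in KAT and at 33.5, 2.74, 0.545, 0.671 and 0.791 in KPAT. The groups overlapped, with KPT 5 and KPAT 1 the highest of all 15 and KAT 2, at 4 reads, the lowest. Its log2 fold change was -1.81 (SE 1.22, adjusted p = 0.327) in KPAT against KPT. Ifit3 (0.547 to 61.3) and Ifit3b (0.0549 to 14.8, 1 read in KAT 2) were also highest in KPT 5. Their split is uncertain, since 61.8% of the 31-base words of Ifit3 occur in Ifit3b. Ifit2 moved over a narrower range, 1.92 to 11.2, and had the lowest correlation of the family with the other genes (r = 0.79, rho = 0.79, and r = 0.56 without KPT 5 and KPAT 1).

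The oligoadenylate synthetases make the messenger that activates RNase L on double-stranded RNA, and 5 of these members (Oas1a, Oas2, Oas3, Oasl1 and Oasl2) lie on chromosome 5. Oas3 had the largest SD of all 33 genes, at 32.8, 2.49, 15.1, 0.572 and 54.5 in KPT tumours 1 to 5, at 6.75, 0.329, 0.679, 1.48 and 1.48 in KAT and at 40.8, 1.04, 0.763, 0.134 and 0.304 in KPAT. KPT 5, KPAT 1, KPT 1 and KPT 3 stood over 10, KAT 1 at 6.75, and the other 10 tumours under 3. The lowest value, in KPAT 4, is 2 reads. By limma Oas3 did not pass in any comparison (log2 fold change -2.83 with an SE of 1.42, adjusted p = 0.182 in KPAT against KPT, log2 fold change -2.65 with an SE of 1.42, adjusted p = 0.172 in KAT against KPT). DESeq2 called it lower in KAT against KPT.

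Oasl1 (ENSMUSG00000041827, chromosome 5, 114923240 to 114937915), a family member without synthetase activity that restrains Irf7 translation, kept a different order of tumours. It stood at 154, 21.2, 35, 52.5 and 54.6 in KPT tumours 1 to 5, at 10.6, 6.09, 9.66, 15.9 and 14.5 in KAT and at 56.5, 12.9, 4.36, 8.79 and 13.3 in KPAT. KPT 1 was far above KPT 5, and KPT 4, low for most of the genes, was level with KPT 5. All KAT tumours lay below all KPT tumours, and KPAT 1 alone of KPAT reached the KPT range. It fell in KAT (log2 fold change -2.22 with an SE of 0.59, adjusted p = 0.0123) and in KPAT (log2 fold change -1.95 with an SE of 0.59, adjusted p = 0.0357). The KPAT call was lost with edgeR (adjusted p = 0.0751) and on leaving out KPT 1, KPT 4, KPT 5 or any of KPAT 2 to 5 (adjusted p = 0.0531 to 0.0893), and the KAT call without KPT 1 and KAT 1 together (adjusted p = 0.0501). A predicted antisense gene shares exon positions with Oasl1, and whether reads were counted by strand is not given.

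Oas1a (1.67 to 50.3) shares 68.7% of its 31-base words with Oas1g, so their reads may be split between them. Oas2 (0.436 to 93.2) and Oasl2 (2.35 to 126) were highest in KPAT 1 rather than KPT 5, Oas2 at 93.2 against 76.4 and Oasl2 at 126 against 122. None of the 3 passed. Eif2ak2, the kinase PKR that halts translation on double-stranded RNA, was nearly flat. It stood at 48, 33.1, 59.8, 54.3 and 94.1 in KPT tumours 1 to 5, at 40.4, 51.6, 36.1, 42.9 and 48.4 in KAT and at 47.9, 36.6, 37.2, 42.9 and 45 in KPAT. Only KPT 5 stood well clear of the others, and the gene did not pass (log2 fold change -0.39 with an SE of 0.21, adjusted p = 0.213 in KPAT against KPT).

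Isg15 encodes a ubiquitin-like modifier, Usp18 removes it from proteins and also damps signalling at Ifnar2, and Isg20 is an exonuclease. Isg15 stood at 16.8, 1.66, 4.16, 1.63 and 58.2 in KPT tumours 1 to 5, at 7.22, 1.7, 1.15, 3.92 and 4.45 in KAT and at 25.4, 2.7, 1.25, 0.537 and 0.669 in KPAT. KPT 5, KPAT 1 and KPT 1 were the highest, and KPT 2 and KPT 4 were as low as the lower KAT tumours. The groups overlapped and no comparison passed (log2 fold change -1.65 with an SE of 1.08, adjusted p = 0.31 in KPAT against KPT). Usp18 (ENSMUSG00000030107, chromosome 6, 121245906 to 121270917) stood at 15.2, 3.84, 10.9, 3.48 and 44.9 in KPT tumours 1 to 5, at 4.92, 2.31, 1.72, 1.78 and 1.43 in KAT and at 12.8, 1.41, 0.926, 0.738 and 0.669 in KPAT. KPAT 1 lay within the KPT range and the other 4 KPAT tumours below it. It fell in KPAT against KPT (log2 fold change -2.65 with an SE of 0.80, adjusted p = 0.0346), and had a log2 fold change of -2.17 (SE 0.80, adjusted p = 0.0526) in KAT against KPT, where edgeR and DESeq2 called it lower. It was also called lower there by limma with array weights, a pseudocount of 8, quantile scaling, the 2 groups alone, the replicate block or the deposited scale, and without KPT 2, KPT 4, KAT 1 or KPAT 1. The KPAT call was lost with edgeR (adjusted p = 0.102) and on leaving out KPT 1, KPT 3, KPT 5 or any of KPAT 2 to 5 (adjusted p = 0.06 to 0.078). A predicted antisense gene overlaps its exons.

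Isg20 (ENSMUSG00000039236, chromosome 7, 78913424 to 78920396) did not follow the other genes from tumour to tumour, yet it fell in KAT. It stood at 26.3, 31.3, 23.4, 21.4 and 32.7 in KPT tumours 1 to 5, at 23, 19.1, 13.8, 12.7 and 13.6 in KAT and at 20.6, 14.3, 21.5, 13.2 and 19.7 in KPAT. KAT 1 lay within the KPT range and the other 4 KAT tumours below it, with a spread small enough for a modest difference to pass (log2 fold change -0.74 with an SE of 0.20, adjusted p = 0.0146). The call held under all 29 alternatives, and the fold change in KPAT against KPT was -0.61 (SE 0.20, adjusted p = 0.0521), where DESeq2 called it lower.

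Rsad2 (viperin) and Cmpk2, neighbours on chromosome 12, act on nucleotides, viperin by making a chain-terminating one. Rsad2 stood at 5.12, 1.47, 0.972, 1.06 and 21.5 in KPT tumours 1 to 5, at 3.75, 0.165, 0.888, 1.78 and 1.7 in KAT and at 20.05, 2.41, 0.545, 0.939 and 0.852 in KPAT. KPT 5 and KPAT 1 were almost equal and far above every other tumour. Cmpk2 ranged from 0.352 to 16.6 with the same tumours on top. Neither passed in any comparison, and Cmpk2 had a log2 fold change of -0.05 (SE 0.95, adjusted p = 0.975) in KAT against KPT.

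Bst2 (tetherin), which holds budding virus at the cell surface, had the highest level per length of the 33 genes (50.5 deposited units per kb of exon, mean of 15 tumours), followed by Oasl1 (12) and Irf7 (11.9), while Rsad2 had the lowest (0.971). Its levels were 77.6, 38.6, 49.9, 24.8 and 164 in KPT tumours 1 to 5, 42.3, 27, 29.6, 35 and 37.3 in KAT and at 64.1, 32.3, 22.4, 20.6 and 18 in KPAT. It did not pass by limma (log2 fold change -1.03 with an SE of 0.43, adjusted p = 0.112 in KPAT against KPT), and DESeq2 called it lower in both comparisons with KPT. Ifi44, named for its induction by interferon, stood at 6.37, 1.22, 5.78, 0.396 and 44.7 in KPT tumours 1 to 5, at 5.06, 0.769, 0.888, 4.13 and 2.47 in KAT and at 18.5, 1.74, 1.04, 1.48 and 1.09 in KPAT. KPT 5 and KPAT 1 were again highest, KPT 4 was lowest of all 15, and the groups overlapped.

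Xaf1 (ENSMUSG00000040483, chromosome 11, 72301629 to 72313733), a pro-apoptotic antagonist of XIAP, lies 2.72 Mb from Trp53 on the same chromosome. It stood at 39.8, 16.9, 24.4, 13.5 and 73.4 in KPT tumours 1 to 5, at 9.37, 3.24, 6.21, 6.09 and 7.36 in KAT and at 46.4, 11.3, 7.3, 6.78 and 6.87 in KPAT. All KAT tumours lay below all KPT tumours, and Mx2, Oasl1 and Xaf1 are the 3 members of 33 for which this held. The same held for 8.38% of all tested genes, a share near that of the members, so the count is not a result about the list. Xaf1 fell in KAT (log2 fold change -2.17 with an SE of 0.54, adjusted p = 0.00883), and in all 29 alternatives. In KPAT 1 it was inside the KPT range and in the other 4 KPAT tumours below it (log2 fold change -1.3 with an SE of 0.54, adjusted p = 0.111).

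**Figure D4:**
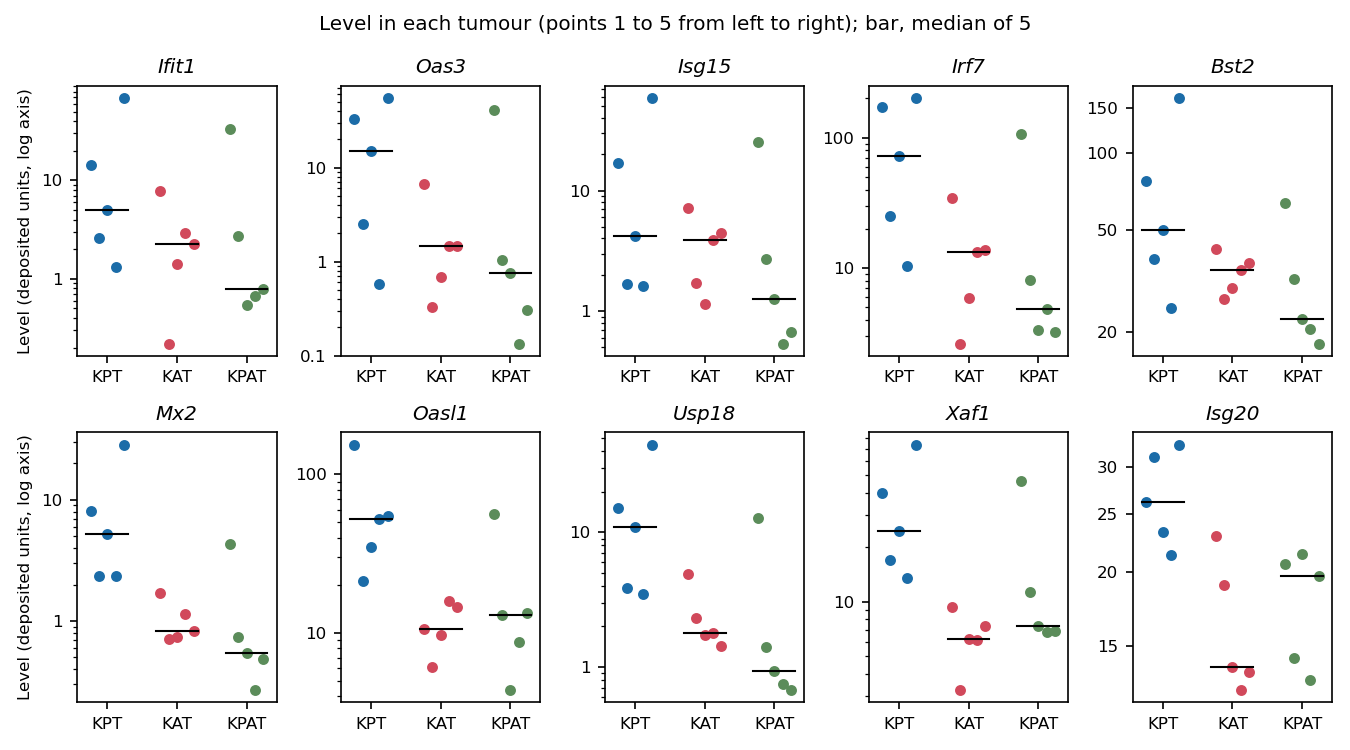
Level of 10 of the genes in each tumour (deposited units, log axis), with tumours 1 to 5 of a group from left to right and the group median as a bar. KPAT 1 is the leftmost and highest green point for every gene shown but Isg20, and the KAT points lie below all KPT points for Mx2, Oasl1 and Xaf1.

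Trim30a, a regulator of innate signalling, had a positive fold change in both comparisons with KPT. It ranged from 2.81 to 20.6 in KPT, 11.5 to 16.9 in KAT and, for KPAT, 3.16 to 28.9. Of the KPT tumours 4 lay below every KAT tumour and KPT 5 above. It did not pass (log2 fold change 1.35 with an SE of 0.55, adjusted p = 0.0754 in KAT against KPT). Ifi27l2a, a small mitochondrial or nuclear membrane protein, had a log2 fold change of -1.53 (SE 0.67, adjusted p = 0.426) in KPAT against KAT, the smallest p of the 33 there. Rtp4, a chaperone of receptors that also limits virus replication, ranged from 1.25 to 57.1, Ifi35 from 6.31 to 25.1 and Parp14, an ADP-ribosyltransferase, from 16.1 to 106, and none of these passed. DESeq2 called Rtp4 lower in KAT against KPT. Ifi35 was called lower there by limma with quantile scaling, with the replicate block and without KPT 2. Rtp4, Parp14 and Irf9 share exon positions with another gene on the same strand, and Ifi35, Dhx58, Eif2ak2 and Irf7, like Oasl1 and Usp18, with one on the opposite strand.

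The cytosolic sensors RIG-I (Ddx58) and MDA5 (Ifih1) detect viral RNA, Dhx58 (LGP2) tunes them, Zbp1 detects Z-form nucleic acid, and Ddx60 assists RIG-I. Ddx58 stood at 31.2, 10.04, 13.8, 14.5 and 42.9 in KPT tumours 1 to 5, at 22.1, 14.2, 19.3, 25.1 and 25.4 in KAT and at 31.7, 27.1, 15, 17.8 and 26 in KPAT. Its groups overlapped throughout, and it had a log2 fold change of 0.23 (SE 0.35, adjusted p = 0.692) in KPAT against KPT, one of 2 members with a positive sign there. Ddx60 had the largest SD of the sensors, at 16.2, 2.11, 8.58, 1.54 and 39.96 in KPT tumours 1 to 5, at 13.1, 1.54, 2.87, 4.09 and 4.72 in KAT and at 29.5, 2.37, 1.2, 1.68 and 1.16 in KPAT. KPT 5 and KPAT 1 were highest, and KPT 1 and KAT 1 followed. Ifih1 (12.9 to 47.8) was highest in KPAT 1, and Dhx58 (1.85 to 35.1) and Zbp1 (1.47 to 24.1) in KPT 5. Zbp1 was about as high in KAT 1 (16.9) as in KPAT 1 (14.1). No sensor passed in any comparison by limma at adjusted p 0.05, and edgeR and DESeq2 called none either.

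Irf7, the factor that amplifies interferon production, was the most variable of the 3 transcription factors. It (ENSMUSG00000025498, chromosome 7, 141262706 to 141266481) stood at 172, 25.1, 71.9, 10.3 and 200.3 in KPT tumours 1 to 5, at 34.3, 2.64, 5.85, 13.4 and 13.7 in KAT and at 107, 8.15, 3.32, 4.9 and 3.22 in KPAT. KPT 5, KPT 1, KPAT 1 and KPT 3 were highest, and KPT 4 at 10.3 lay under 3 KAT tumours. It missed the threshold in KPAT against KPT (log2 fold change -2.74 with an SE of 1.01, adjusted p = 0.0766) and in KAT against KPT (log2 fold change -2.53 with an SE of 1.01, adjusted p = 0.0731), and passed in both without KPT 4 or without KPAT 1. Irf7 was also called lower in both with the replicate block, and in KAT against KPT with DESeq2. Irf9 (22.6 to 77.3) and Stat2 (26 to 67.5), both parts of ISGF3, covered a much smaller range. Irf9 tracked the other genes closely nonetheless (r = 0.98, rho = 0.96, and r = 0.96 without KPT 5 and KPAT 1). The fold change was -0.24 (SE 0.25, adjusted p = 0.536) for Stat2 and -0.38 (SE 0.32, adjusted p = 0.443) for Irf9 in KPAT against KPT.

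In whole tumours fewer cells of a type and less RNA per cell cannot be told apart, so markers of other cells are set beside these results. Summed macrophage markers (9 genes) were 609 to 1056 in KPT, 1601 to 3053 in KAT and, for KPAT, 901 to 1864, with 7 of 9 higher in KAT and 5 of 9 in KPAT, against KPT. Summed fibroblast markers (7 genes) were 861 to 3888, 6130.2 to 9261 and 4828 to 13456 in the same order, with 7 of 7 higher in KAT and 5 of 7 in KPAT. Ductal markers fell in 4 of 7 genes in KAT and 2 of 7 in KPAT. Of all tested genes 15.6% were called higher and 13.3% lower in KAT, and 9.13% and 7.40% in KPAT, against KPT. Over tumours, macrophage markers stood at 1056 in KPT 5, 736 in KPT 1 and 1720.1 in KPAT 1, the highest of KPT, the second lowest of KPT and the second highest of KPAT. The part of these cells in the members' levels was not tested.

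The summed T cell markers (7 genes) were 0.802 in KPT 5, 1.72 in KPAT 1 and 10.6 in KPT 1, of 0.802 to 10.6 in KPT, 1.43 to 21.1 in KAT and, for KPAT, 0.487 to 2.45. KPT 5 was the lowest of KPT in this sum and KPT 1 the highest. The 4 NK cell markers in the table summed to 0.0891 in KPT 5, 0.959 in KPAT 1 and 3.81 in KPT 1, of 0.054 to 3.81 in KPT, 1.1 to 3.37 in KAT and, for KPAT, 0.537 to 1.58, so KPAT 1 was the median of its group. Klrb1c, Gzma and Prf1 of these 4 were at 0 in KPT 5, and none was at 0 in KPAT 1 or KPT 1. Plasmacytoid dendritic cells are the strongest producers of type I interferon. Their 4 markers in the table summed to 1.62 to 9.53 in KPT, 2.2 to 146 in KAT, where KAT 1 owed 141 to Klk1, and 1.22 to 7.56 in KPAT. The sum was 5.66 in KPT 5, 5.62 in KPT 1 and 3.33 in KPAT 1, and Siglech alone of the 4 was at 0 in KPT 1 and in KPAT 1. Most of these sums was Klk1 (4.05, 3.01 and 1.31, in the same order) and Pacsin1 (1.38, 2.31 and 1.36). Klk1 alone stood at 7.93 in KPT 2 and 4.56 in KPAT 2, which had the highest sums of their groups. KPT 2, KPAT 2 and KAT 1 also held the highest summed acinar markers of their groups (198, 642 and 873). Whether the Klk1 reads came from plasmacytoid dendritic cells or from acinar cells was not tested. Siglech was at most 0.109 in KPT and KPAT, so the sum follows mainly 2 of the 4 markers. B cell markers (5 genes) were highest in KAT 1 (87.4) and lay at 4.63 in KPT 5, 21.7 in KPT 1 and 11.1 in KPAT 1. KPT 1 and KPAT 1 were the highest of their groups in this sum, and KPT 5 was the second lowest of KPT. Conventional dendritic cell markers were 3.29 to 7.84 in KPT, 7.58 to 19.2 in KAT and, for KPAT, 7.78 to 13.3, neutrophil markers 20.6 to 144, 36.9 to 83.3 and 12.3 to 53, endothelial markers 95.8 to 178, 125 to 384 and 141 to 272, and acinar markers 42.3 to 198, 73.1 to 873 and 17.8 to 642, in the same order. Without KPT 1 and KAT 1, the highest in intestinal markers, 1 member (Mx2) was called lower in KPAT against KPT and 3 (Mx2, Isg20 and Xaf1) in KAT against KPT. Calls over all genes were fewer in that fit too, at 4.86% and 9.40% lower against 7.40% and 13.3% with every library.

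The receptor chains and kinases of the pathway were measured beside their targets. None of the 21 interferon ligand genes listed, Ifnb1 among them, was found in the gene table, so they are not analysed here. Of 11 receptor and JAK-STAT genes, limma called 0 in KPAT against KPT (2 at an unadjusted p under 0.05, 0 by edgeR and DESeq2) and 3 in KAT against KPT (2 higher, 1 lower). Of all tested genes 15.6% were called higher in KAT and 13.3% lower, so 3 of 11 is near the share of all genes. Ifnar1 lay between 79.6 and 110.4 in the 15 tumours and had a log2 fold change of 0.01 (SE 0.11, adjusted p = 0.967) in KAT against KPT. Ifnar2 rose in KAT (log2 fold change 0.49 with an SE of 0.15, adjusted p = 0.0224), as did Jak1 (log2 fold change 0.40 with an SE of 0.12, adjusted p = 0.0223), and Ifngr2, a chain of the interferon gamma receptor, fell (log2 fold change -0.48 with an SE of 0.17, adjusted p = 0.0428). The Ifnar2 call was lost on leaving out KAT 4 (adjusted p = 0.0645), that of Jak1 on leaving out KAT 3 or KAT 4 (adjusted p = 0.0506 to 0.0585) and that of Ifngr2 on leaving out any one of KPT 1, KPT 2, KAT 2, KAT 3, KAT 4, KAT 5 and KPAT 1 (adjusted p = 0.0503 to 0.096).

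Of 7 other interferon regulatory factors, 1 rose in KPAT against KPT and 2 rose in KAT against KPT, where 9.13% and 15.6% of all tested genes rose. Irf5, a myeloid factor of cytokine induction, rose in KAT (log2 fold change 1.96 with an SE of 0.28, adjusted p = 0.000371) as well as in KPAT (log2 fold change 1.06 with an SE of 0.28, adjusted p = 0.0192), where the call was lost on leaving out KPAT 2 (adjusted p = 0.0539). Irf4, known from lymphocytes and dendritic cells, rose in KAT (log2 fold change 3.09 with an SE of 0.68, adjusted p = 0.00443). Irf1, a factor induced by interferon, was highest in KAT 1 (89) and KPT 1 (78.1) and did not pass (log2 fold change -0.16 with an SE of 0.32, adjusted p = 0.737). Of 16 tested nucleic acid sensing genes, 2 rose in KPAT, and 4 rose and 1 fell in KAT, each against KPT. Of all tested genes 9.13% rose in KPAT, and 15.6% rose and 13.3% fell in KAT, and counts this small do not set the list apart from them. The 2 higher in KPAT became 1 without KPT 1, KPT 2, KPAT 2 or KPAT 3 and 4 without KPAT 4, and the 4 higher in KAT became 2 without KPT 2, KPT 3, KAT 4 or KAT 5. The 1 lower in KAT became 0 without KPT 1, KPT 5, KAT 3, KAT 4 or KAT 5. Tlr9, the endosomal DNA receptor, rose in KAT (log2 fold change 3.09 with an SE of 0.42, adjusted p = 0.000319) and KPAT (log2 fold change 1.8 with an SE of 0.42, adjusted p = 0.0119) from under 1 unit in every KPT tumour. The kinase Ikbke rose in KAT (log2 fold change 0.84 with an SE of 0.21, adjusted p = 0.00874) and in KPAT (log2 fold change 0.75 with an SE of 0.21, adjusted p = 0.0245), and the cytosolic DNA sensor Cgas in KAT (log2 fold change 1.59 with an SE of 0.50, adjusted p = 0.0283). The KPAT call of Ikbke was lost on leaving out any one of KPT 1, KPT 2, KPAT 2 and KPAT 3 (adjusted p = 0.0595 to 0.0631), and that of Cgas on leaving out any one of KPT 2, KPT 3, KAT 4 and KAT 5 (adjusted p = 0.0664 to 0.072). Irf5 is known from macrophages among other cells. Of the 9 macrophage markers 7 were called higher in KAT and 5 in KPAT (above), and their part was not tested.

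Of 6 negative regulators, 1 rose and 1 fell in KPAT and 3 rose in KAT, against KPT. Of all tested genes 9.13% rose and 7.40% fell in KPAT and 15.6% rose in KAT, and a list of 6 is too short to be set against these shares. Socs1, a feedback inhibitor of JAK kinases, rose in KAT (log2 fold change 1.38 with an SE of 0.30, adjusted p = 0.00467) and in KPAT (log2 fold change 1.51 with an SE of 0.30, adjusted p = 0.00678), with no overlap between KPT (1.3 to 3.92) and either KAT (4.67 to 7.64) or KPAT (4.58 to 9.63). Socs3 fell in KPAT (log2 fold change -0.57 with an SE of 0.16, adjusted p = 0.0278), a call lost on leaving out any one of KPT 1, KPT 2, KPT 3, KPAT 4 and KPAT 5 (adjusted p = 0.0508 to 0.0664). The phosphatase Ptpn6, a haematopoietic gene, rose in KAT (log2 fold change 0.86 with an SE of 0.20, adjusted p = 0.00566), as did Pias1 (log2 fold change 0.63 with an SE of 0.16, adjusted p = 0.00842). In KPAT against KAT limma called 0 of the 129 tested genes of all pathway lists, with 19 at an unadjusted p under 0.05, and edgeR called 0 and DESeq2 2.

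Genes known mainly as interferon gamma targets had another order of tumours across genotypes, led by KAT 1, but a like order within them. Their mean log2 level ran from KPT 5 through KPT 1, KPT 3 and KPT 2 down to KPT 4, as that of the 33 did. KAT 1 and KPAT 1 led their groups in both lists. As a description over 15 tumours, their deviations from genotype means correlated with the mean deviation of the 33 at a median r of 0.79 (-0.04 to 0.93). Of 27 tested, 9 rose in KAT against KPT, where 15.6% of all tested genes did, with a median log2 fold change of 0.93. By limma 0 fell, with 0 lower at an unadjusted p under 0.05 and 0 by edgeR and DESeq2. DESeq2 called 8 of the 27 and edgeR 7, limma 4 without KPT 1 and KAT 1 together (8 without KPT 1, 7 without KAT 1), and 13 with array weights. In KPAT against KPT 1 rose, Gbp4, and the median was 0.11. That call was lost on leaving out any one of KPT 2, KPT 3, KPT 4, KAT 4, KPAT 1, KPAT 2, KPAT 3 and KPAT 4 (adjusted p = 0.0503 to 0.0857). Gbp4, a guanylate-binding GTPase, was at 1.55, 0.767, 0.81, 0.528 and 1.78 in KPT tumours 1 to 5, at 14.9, 3.9, 11.1, 7.4 and 5.33 in KAT and at 4.14, 2.93, 4.03, 2.42 and 1.28 in KPAT, every KAT tumour above every KPT tumour (log2 fold change 2.88 with an SE of 0.44, adjusted p = 0.000532). Gbp8 rose in KAT (log2 fold change 1.91 with an SE of 0.35, adjusted p = 0.00172), and so did Ciita (log2 fold change 2.98 with an SE of 0.69, adjusted p = 0.00595), the regulator of class II antigen presentation genes. KAT 1 held the highest level of 19 of these 27 genes, against 0 of the 33 members, and KPT 5 that of 3. Their mean log2 level was 8.55 in KAT 1, 7.55 in KPT 5, 7.29 in KPAT 1 and 6.67 in KPT 1. Summed macrophage markers were 1601 to 3053 in KAT against 609 to 1056 in KPT, T cell markers 1.43 to 21.1 against 0.802 to 10.6, and their part was not tested. Many of these genes also answer to type I interferon, and the difference between the 2 lists was not tested.

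**Figure D5:**
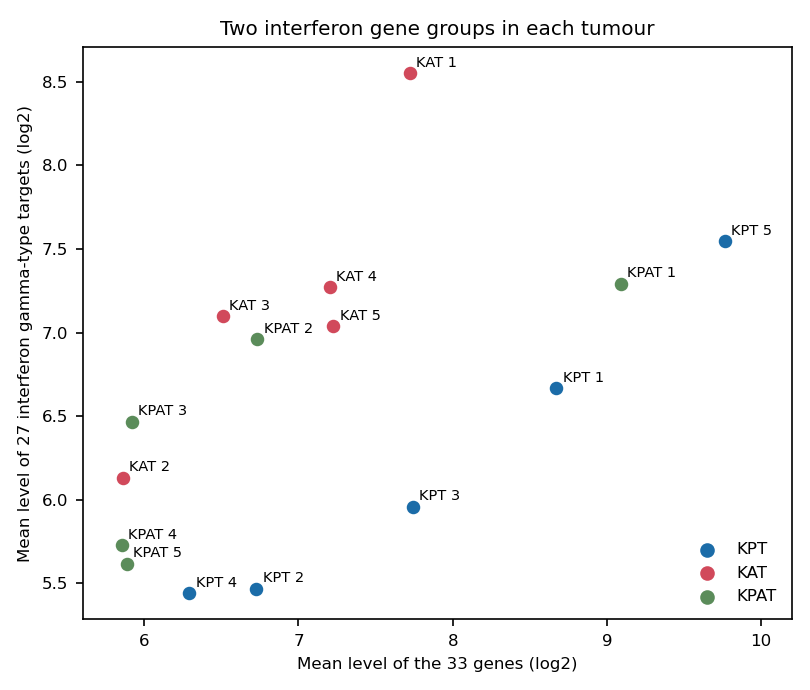
Mean log2 level of the 33 genes (horizontal) and of 27 interferon gamma-type targets (vertical) in each tumour. KAT 1 is the uppermost point, at 8.55, and KPT 5 the rightmost, at 9.77, and the KPT tumours lie below the others at a like horizontal position.

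A further 57 interferon-stimulated genes were listed outside the 33, and the 54 tested were called lower 2 times and higher 2 times in KPAT, and lower 4 times and higher 8 times in KAT, against KPT. Of all tested genes 7.40% were lower and 9.13% higher in KPAT, and 13.3% and 15.6% in KAT, so the list was not called more often than genes at large. The 8 higher in KAT became 3 with quantile scaling and 3 without KPT 2, KPT 4, KAT 1 or KAT 4, 4 without KPT 1 or KAT 3, and 5 without KAT 2, KAT 5 or KPAT 4. The 4 lower in KAT became 2 without KPT 3 or KAT 5. In KPAT the 2 lower became 5 without KPAT 1, and the 2 higher became 0 without KPT 2, KPT 3 or KPAT 2, 1 without KPAT 1 or KPAT 4 and 4 without KPT 5. Oas1c fell in KPAT (log2 fold change -1.52 with an SE of 0.32, adjusted p = 0.00758) and in KAT (log2 fold change -1.08 with an SE of 0.32, adjusted p = 0.0198), and so did the histone chaperone Daxx (log2 fold change -0.43 with an SE of 0.10, adjusted p = 0.0139 in KPAT and log2 fold change -0.44 with an SE of 0.10, adjusted p = 0.00685 in KAT). The Oas1c call in KAT was lost without KPT 1 and KAT 1 together (adjusted p = 0.0807). Slfn8 (log2 fold change 3.62 with an SE of 0.75, adjusted p = 0.0032), the nuclear body gene Sp110 (log2 fold change 1.8 with an SE of 0.38, adjusted p = 0.00347) and Trim30b (log2 fold change 1.85 with an SE of 0.39, adjusted p = 0.0036) rose in KAT. Ifi205, of the DNA-binding Ifi200 family, rose in KPAT (log2 fold change 1.85 with an SE of 0.52, adjusted p = 0.0258) and in KAT (log2 fold change 1.47 with an SE of 0.52, adjusted p = 0.0449), and Trim30b in KPAT too (log2 fold change 1.39 with an SE of 0.39, adjusted p = 0.0263). Without KPT 2 or KPT 3, among other libraries, the calls of Ifi205 in both comparisons and of Trim30b in KPAT were lost. The KAT call of Ifi205 held in only 10 of 29 alternatives and was lost with both edgeR and DESeq2. Its KPAT call held in 22 of 29 and was lost with edgeR, and the KPAT call of Trim30b held in 21 of 28. Slfn8 is a low gene, at 0.0639 to 0.847 in KPT.

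The type I interferon genes lie on chromosome 4 beside Cdkn2a, whose Arf part is floxed in KAT and KPAT. Of 8 tested genes around the cluster, 1 rose in KPAT against KPT, and 2 rose and 1 fell in KAT against KPT. Of all tested genes 9.13% rose in KPAT, and 15.6% rose and 13.3% fell in KAT, and the list is too short to be set against these shares. Cdkn2b, the cyclin kinase inhibitor next to Cdkn2a, rose in KAT (log2 fold change 0.96 with an SE of 0.25, adjusted p = 0.0116) and KPAT (log2 fold change 0.95 with an SE of 0.25, adjusted p = 0.0196). Hacd4 rose in KAT (log2 fold change 1.03 with an SE of 0.24, adjusted p = 0.00664) and Mllt3 fell (log2 fold change -0.55 with an SE of 0.13, adjusted p = 0.00566). Mtap, the methionine salvage enzyme gene, lay at 65.9 to 114 in KPT, 76 to 121 in KAT and, for KPAT, 81 to 196 and did not pass (log2 fold change 0.56 with an SE of 0.23, adjusted p = 0.116 in KPAT against KPT).

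The genes outside the list whose levels were most like the mean of the 33 were, in order, Clec2d, Rnf213, Gbp3, Sp100, Dennd4c, Parp9, Parp12, H2-T23, Oas1g and Tnfsf10. The measure is Pearson's r of deviations from genotype means over 15 tumours, which share their library scaling, with predicted genes and pseudogenes passed over. It ran from 0.96 for Clec2d (rho 0.91) to 0.91 for Tnfsf10 (rho 0.95), and from 0.80 to 0.93 without KPT 5 and KPAT 1. Clec2d, the ligand of an inhibitory receptor of NK cells, lay between 34.2 and 111. H2-T23, the gene of the nonclassical class I molecule Qa-1, was highest in KAT 1 (184), and so was Tnfsf10, the death ligand TRAIL (12.4). Gbp3 is one of the gamma-type genes above, and Rnf213, Sp100, Parp9, Parp12 and Oas1g are among the 54 other interferon-stimulated genes.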

How the data were processed

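RNA of whole tumours was made into TruSeq libraries after RNeasy extraction and run on a HiSeq4000, as the labels' protocols say. Per the submitters' processing notes, HISAT2 2.0.4 and mm10 (GRCm38) were used. Not given in the sources used here are the counting tool, its handling of strand and multiply mapped reads, and how values were normalized. From the values, the authors' deposited signal is a whole number of reads over 1 factor for each library (100% within 0.01 of a whole number after multiplication by the factor). The values were multiplied by one constant, 19.478, the geometric mean of the libraries' reads per unit, and genes with a mean of at least 10 were kept. limma 3.58.1 (R 4.3.3) fitted group means to log2(normalized count + 1) over the 15 libraries together, with trended eBayes moderation, two-sided tests and calls at adjusted p 0.05. edgeR 4.0.16 and DESeq2 1.42.0 ran on the recovered reads as alternatives. The fit was tested on simulated data. Symbols and gene coordinates are from GENCODE for GRCm38, and copies were found by shared 31-base words (at least 20%).

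The members and gene lists were chosen with earlier results of these data known, so no list was tested as a set. Values in every tumour are given for members called in any comparison and, per role, for the one with the highest mean and the one with the largest SD, and from the pathway lists for a few fixed genes and up to 3 called genes per list and comparison. Some of the genes these rules name, and 1 allele that all groups carry, are not reported here. Python 3.11.15, numpy 2.4.6, pandas 2.3.3 and matplotlib 3.10.9 were used. P-values measure the spread between these tumours.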

Additional observations from a re-analysis of the deposited data

Results flagged for a closer look

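Each gene's 5 tumours of a genotype, and the mean level of the 33 genes, were examined for a tumour far from the other 4, as the gap to the nearest over the group's range on the log2 scale (limit 0.71). Of 102 groups, 12 had one, where chance alone gives about 1 in 20. KPAT 1 was the tumour in 11 of the 12, always as the highest. In deposited units these were Oas1a at 34.2 (others 2.68 to 5.59), Usp18 at 12.8 (others 0.669 to 1.41), Ifi44 at 18.5 (others 1.04 to 1.74), Xaf1 at 46.4 (others 6.78 to 11.3), Ifih1 at 47.8 (others 12.9 to 15.7), Dhx58 at 18.6 (others 2.08 to 3.16), Zbp1 at 14.1 (others 1.91 to 2.85), Ddx60 at 29.5 (others 1.16 to 2.37), Irf7 at 107 (others 3.22 to 8.15) and Stat2 at 67.5 (others 26 to 33.2). The mean log2 level of the 33 genes was 9.09 in KPAT 1 against 5.85 to 6.73 in the other KPAT tumours. Cmpk2 was lowest in KAT 2, at 0.549 against 2.71 to 4.27. Since the genes move together, the flags of KPAT 1 are one pattern and not 11 separate ones. KPT, with KPT 5, KPT 1 and KPT 3 spread over its range, had no such tumour.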

How the results depend on the processing

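Results were recomputed in 29 alternative analyses. Mx2 in both comparisons, and Isg20 and Xaf1 in KAT against KPT, kept direction and call in all 29. Usp18 and Oasl1 kept the call in 18 of 29 in KPAT against KPT. The number of members called lower in KPAT against KPT, 3, was 1 in a fit of the 2 groups compared, with array weights, with edgeR and without KPT 1 and KAT 1 (a choice made after seeing the data), and 5 with DESeq2. Of all genes 4.96%, 6.76%, 7.26%, 4.86% and 11.5% were called lower in these fits, in that order. With 1 library left out the number of members ran from 1 to 9, where 4.62% to 7.72% of all genes were. In KAT against KPT, 4 were lower, and 7 with quantile scaling and 11 with DESeq2, where 14.6% and 16.9% of all genes were. The 11 were Mx1, Mx2, Ifit3b, Oas3, Oasl1, Usp18, Isg20, Bst2, Rtp4, Xaf1 and Irf7. With 1 library left out 4 to 6 were lower, where 9.82% to 13.4% of all genes were. Array weights called 1 higher, where 20.5% of all genes were (0 to 1 with 1 library left out). All genes called in KPAT against KPT, 2752, came to 1811 in the fit of 2 groups and ran from 1687 to 2895 with 1 library left out. In KPAT against KAT the 8 genes called became 17 with quantile scaling, 15 in the fit of 2 groups, 515 with array weights and 284 with DESeq2 (7 to 45 with 1 library left out). Its median over the members turned from -0.21 to 0.32 with edgeR and 0.324 with DESeq2, with 8 negative in each instead of 22, and ran from -0.87 to -0.01 with 1 library left out. The 9 gamma-type targets higher in KAT against KPT numbered 4 without KPT 1 and KAT 1 and 13 with array weights. The cause of these shifts was not tested. Of the promoter motifs, AANNGAAA was found at 19 genes and TTCNNNGAA, searched after seeing the data, at 6, against 15 for GAAANNGAA. Tumour levels as a median over members, or without the 3 that share reads with a copy, moved by less than the SD of their group. Depth limits the lowest values, down to 1 read for Ifit3b in KAT 2.

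The replicate numbers do not pair the tumours: same-numbered deviations correlated at -0.209 to 0.246, over 0.1 in 5 of 15 pairs, and 3 of 15 tumours were most like one of their own number. With the number as a replicate block, 7 members were called lower in KAT against KPT and 4 in KPAT against KPT. Of all tested genes 11.9% and 6.14% were called lower in that fit.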

Other observations

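KPT 5 and KPAT 1, both high for the 33 genes, did not have them in the same proportion. The ratio of KPT 5 to KPAT 1 had a median of 1.58 over the 33 genes and ran from 0.714 for Trim30a to 6.57 for Mx2. Usp18, which removes ISG15 and damps receptor signalling, stood at 3.5, Isg15 at 2.29, Rsad2 at 1.07 and Oas2 at 0.819. KPT 5 against KPT 1 gave a median of 2.2, from 0.355 for Oasl1 to 7.01 for Ifi44, and Irf7 was nearly equal in the pair (200.3 and 172). These are single tumours, chosen after their levels were seen, and the ratios have no test.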
